A study of Mus musculus with 8 samples.

Results

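Lpl, Saa3, Retnla, Fn1, Spire1 and Ier3 are 6 genes whose brightest probe sets gave low signal in MYC-negative germinal centre B cells and clear signal in MYC-positive ones. They were chosen from earlier results of this same contrast, so their higher signal in MYC-positive cells is what selected them and is described here without a test. Of 18193 genes with a probe set assigned to a single symbol, 11754 passed a filter on low signal, the 6 genes among them. The 6 genes have 12 probe sets, all described below, of which 8 passed the filter.

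The samples were germinal centre B cells from spleens of 8-week-old GFPMYC knock-in mice on C57BL6, all given sheep red blood cells and taken 12 days later. The knock-in allele makes MYC as a fusion with green fluorescent protein, so GFP fluorescence reports MYC protein in living cells. Both groups carry this allele and received the same immunization. A B cell fraction was enriched with magnetic beads, cells high in PNA binding and in CD95 were gated as germinal centre B cells, and these were sorted into GFPMYC-positive and GFPMYC-negative cells. Affymetrix Mouse 430.2 arrays were hybridised with cDNA amplified from 5 to 20 ng of total RNA, giving 4 arrays per group and 4 pairs named by the sample descriptions. The sort is stated per mouse in one label and on pools of splenic cells in another, so whether a pair is 1 animal is not settled, and the p-values speak only of the spread between the 4 pairs.

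Germinal centres are the sites in lymphoid tissue where activated B cells divide, mutate their antibody genes and are selected by antigen and T cell help. MYC is a transcription factor that drives cell growth and division, and only a minor part of germinal centre B cells makes it at a given time. The 6 genes have no single shared function. Lpl, Saa3, Retnla and Fn1 encode secreted proteins that are well known as products of macrophages, among other cells, whereas Spire1 and Ier3 encode intracellular proteins, an actin nucleator and an early response protein.

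The array signal of Myc was read first as a check of the labels. On the MYC-negative arrays of pairs 1 to 4 it was 33.3, 156, 105 and 137, and on the MYC-positive arrays it was 361, 932, 644 and 891. Each MYC-positive array lay above every MYC-negative array. The mean paired difference was 2.83 on the log2 scale (SD 0.41, n = 4 pairs; limma SE 0.28, Benjamini-Hochberg adjusted p 0.00069). Over all genes tested, 11.2% were called higher and 11.5% lower in MYC-positive cells by limma at adjusted p under 0.05, and in 11.1% all MYC-positive arrays lay above all MYC-negative arrays. Centring each array on its median turned the split of calls from 1319 higher and 1352 lower to 3204 higher and 546 lower, and it raised the median of all genes by 0.44 against a median of -0.063 as reported.

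In the brightest probe set of each, all 6 genes had MYC-positive arrays that did not overlap the MYC-negative ones, and all 6 were higher in 4 of 4 pairs. Of all 12 probe sets, 8 had MYC-positive arrays all above the MYC-negative ones. The background shares of 11.2% and 11.1% stand beside these counts only as a description, since the contrast chose the genes. The median over the 6 genes of the mean paired difference was 4.66, and 5 of them were among the 12 genes with the largest differences. "Near-silent" was read as a MYC-negative geometric mean under the filter level, a signal of 18.7. Lpl, Retnla, Fn1, Spire1 and Ier3 met it, and Saa3 did not, because its MYC-negative geometric mean was 56.5 and 0 of its 4 MYC-negative arrays lay under 18.7. The label near-silent therefore does not hold for Saa3, which is kept here as a gene with a low MYC-negative signal. Among the Spire1 probe sets that passed the filter, only the brightest, 1455409_at, met it, at 15.7. The MYC-negative geometric means of 1454962_at and 1446117_at were 23.2 and 37.5, so for Spire1 the label depends on the probe set.

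In all, 253 genes tested had a MYC-negative geometric mean under the filter level. A gene of that kind passes the filter only through its MYC-positive arrays and so had to be higher there. Of these, 21 reached a MYC-positive geometric mean over 100, and 5 of the 21 are the genes described here. The other 16 include the macrophage receptor Csf1r and the complement genes C1qa and C1qc. Retnla sat just inside the limit, with a MYC-negative geometric mean of 18.0, and in the probe sets used only Saa3 of the 6 genes sat outside it. For Retnla, Spire1 and Ier3 only 2 of the 4 MYC-negative arrays lay under the limit. The MYC-negative geometric mean of Ier3, 12.0, rests in part on the array of pair 2, at 1.70.

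**Figure D1:**
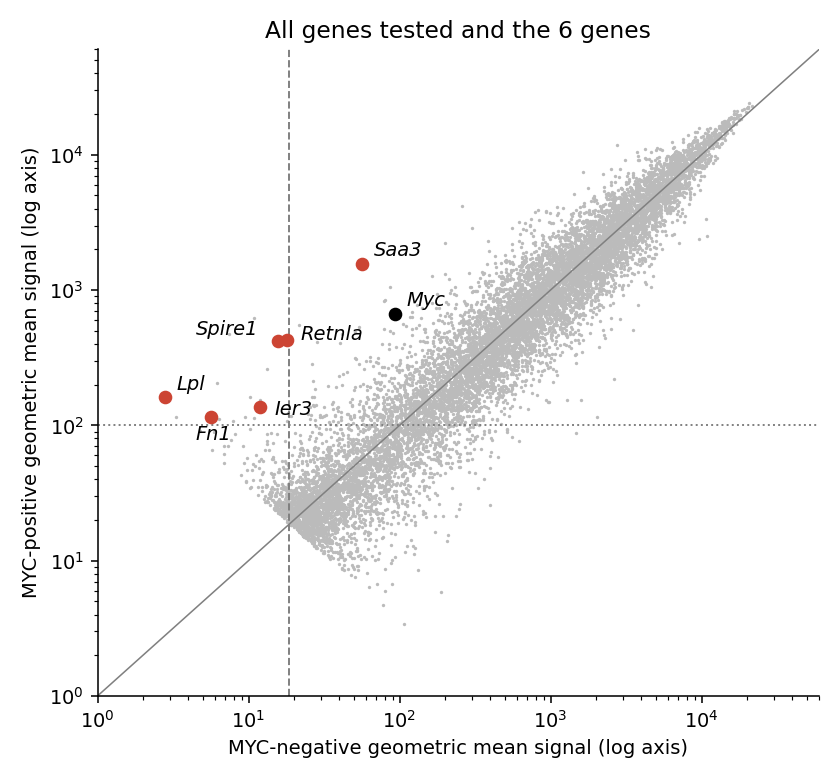
Geometric mean signal of each gene tested in the 4 MYC-negative arrays (x axis, log scale) against the 4 MYC-positive arrays (y axis, log scale), with the 6 genes in red and Myc in black; the dashed line is the filter level of 18.7, the dotted line a signal of 100 and the solid line equality. Lpl, Retnla, Fn1, Spire1 and Ier3 lie left of the dashed line and above the dotted one, and Saa3 lies to the right of the dashed line with a MYC-negative geometric mean of 56.5.

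Lpl encodes lipoprotein lipase, which releases fatty acids from the triglycerides of circulating lipoproteins. Its brighter probe set, 1415904_at, read 0.631, 1.29, 2.80 and 16.7 on the MYC-negative arrays of pairs 1 to 4. It read 251, 136, 89.8 and 218 on the MYC-positive arrays. The MYC-negative arrays were all under the filter level, with pair 4 the highest of them, and the MYC-positive array of pair 3 was the lowest of its group. The paired log2 differences were 7.97, 6.71, 5.00 and 3.71, with a mean of 5.85 (SD 1.88, SE 0.94, n = 4 pairs). The geometric means were 2.79 and 161, a ratio of 57.6, and this ratio depends on the floor of 1 that signals were raised to before log2.

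The second Lpl probe set, 1431056_a_at, did not pass the filter. Its MYC-negative signals were 2.70, 3.97, 3.51 and 2.76, and its MYC-positive signals were 24.0, 44.8, 4.80 and 11.7. Both probe sets separated the groups, but the second only narrowly, at 4.80 against 3.97, signals too low for the arrays to order well. In both the MYC-positive array of pair 3 was the lowest of its group. The highest was that of pair 1 in the first and of pair 2 in the second. The second probe set differed by 2.30 on average (SD 1.37, n = 4 pairs), and its differences ran from 0.45 in pair 3 to 3.50 in pair 2.

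Saa3 encodes serum amyloid A3, an acute phase apolipoprotein made mainly outside the liver by macrophages and other cells in inflammation. Its promoter is printed because such genes are classically driven through C/EBP and NF-kB sites close to the start. The 250 bases before the start, chr7:46715677-46715926 on the minus strand of GRCm38.p6, are given by RefSeq as follows, 5′ to 3′, with a match to the C/EBP motif TTGCNNAA, read on the other strand, in capitals.
Saa3: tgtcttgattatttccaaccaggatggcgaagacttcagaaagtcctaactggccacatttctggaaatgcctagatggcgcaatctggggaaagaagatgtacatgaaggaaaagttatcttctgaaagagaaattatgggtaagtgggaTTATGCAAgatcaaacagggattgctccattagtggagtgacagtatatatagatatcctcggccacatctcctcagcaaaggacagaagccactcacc
The match lay at positions -99 to -92 from the start, and 9.56% of all 32851 RefSeq windows of this length held that motif on either strand.

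The single Saa3 probe set, 1450826_a_at, read 74.9, 29.5, 68.1 and 67.7 on the MYC-negative arrays. On the MYC-positive arrays it read 3192, 1895, 1134 and 884, falling between those limits with no array near the MYC-negative range. The paired differences were 5.41, 6.01, 4.06 and 3.71, with a mean of 4.80 (SD 1.09, SE 0.55, n = 4 pairs). The geometric means were 56.5 and 1569, a ratio of 27.8. Because no Saa3 signal was near the floor, raising the floor to 16 left its difference at 4.80, and a floor of 64 gave 4.52.

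The other serum amyloid A genes, which lie in a cluster of close copies, had dim probe sets. Saa1, an acute phase gene of the liver, had a geometric mean of 6.73 in MYC-negative cells against 4.69 in MYC-positive ones. Saa2, a near copy of Saa1, had 6.69 and 19.6, with arrays of the groups overlapping, and the constitutive Saa4 had 7.68 and 3.96. All are low signals at which the arrays cannot order levels well, and how far a probe set of one copy also reads another was not tested.

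Retnla encodes the secreted protein RELM-alpha, known from macrophages exposed to interleukin-4 or interleukin-13. Its start region is printed for comparison with that of Saa3. The 250 bases before the start, chr16:48842359-48842608 on the plus strand of GRCm38.p6, are given by RefSeq as follows, with a C/EBP match and a TATA box in capitals.
Retnla: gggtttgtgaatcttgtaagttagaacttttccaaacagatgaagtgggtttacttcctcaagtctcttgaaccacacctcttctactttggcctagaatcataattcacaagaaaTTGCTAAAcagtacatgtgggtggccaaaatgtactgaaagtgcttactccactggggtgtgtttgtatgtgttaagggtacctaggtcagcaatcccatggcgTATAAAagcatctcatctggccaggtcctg
The C/EBP match lay at positions -134 to -127 and the TATA box, TATAAA, at -30 to -25, and 12.4% of all windows held a TATA box.

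The Retnla probe set 1449015_at read 6.96, 49.7, 19.1 and 15.8 on the MYC-negative arrays, of which 2 of 4 lay under the filter level. On the MYC-positive arrays it read 764, 570, 1028 and 74.1. The groups did not overlap, but the MYC-positive array of pair 4 stood near the highest MYC-negative array, and the highest and lowest MYC-positive arrays differed 13.9-fold. The paired differences were 6.78, 3.52, 5.75 and 2.23, with a mean of 4.57 (SD 2.07, SE 1.04, n = 4 pairs) and geometric means of 18.0 and 427. Leaving out a pair gave means from 3.83 to 5.35.

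Among the other resistin-like genes, Retn, which encodes resistin, had geometric means of 18.2 and 8.24. Retnlb, known from gut goblet cells, had 1.66 and 1.43, and Retnlg was not analysed here. Neither Retn nor Retnlb passed the filter, so neither was tested. Neither geometric mean was higher in MYC-positive cells, but at such low signals the arrays cannot order levels well.

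Fn1 encodes fibronectin, a matrix and plasma glycoprotein to which integrins bind. Its brighter probe set, 1426642_at, read 6.74, 13.1, 4.24 and 2.74 on the MYC-negative arrays and 347, 227, 136 and 16.8 on the MYC-positive arrays. All MYC-negative arrays and the MYC-positive array of pair 4 were under the filter level, and that pair 4 array was only slightly above the highest MYC-negative one. The paired differences were 5.69, 4.11, 5.00 and 2.62, with a mean of 4.35 (SD 1.33, SE 0.66, n = 4 pairs) and geometric means of 5.66 and 116. The highest and lowest MYC-positive arrays differed 20.6-fold, the widest spread among the 6 genes.

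The second Fn1 probe set, 1437218_at, gave MYC-negative signals of 0.637, 0.956, 3.69 and 1.34 and MYC-positive signals of 31.0, 0.939, 1.53 and 0.902. It rose above the filter level on 1 array, the MYC-positive array of pair 1, where the other probe set was also highest. Its mean difference of 0.82 (SD 2.81, n = 4 pairs) was smaller than its spread, and its groups overlapped. Only the brighter Fn1 probe set therefore carries the difference described.

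Spire1 encodes an actin nucleator that works together with formins and takes part in vesicle transport. Its brightest probe set, 1455409_at, read 12.0, 29.8, 7.51 and 22.4 on the MYC-negative arrays and 200, 604, 498 and 535 on the MYC-positive arrays. The groups lay far apart, and the MYC-positive array of pair 1 was the lowest of its group, as for Myc. The paired differences were 4.06, 4.34, 6.05 and 4.58, with a mean of 4.76 (SD 0.89, SE 0.44, n = 4 pairs), the smallest spread over pairs among the 6 genes. The geometric means were 15.7 and 424, a ratio of 27.0.

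The other 4 Spire1 probe sets showed smaller differences or none. The probe set 1454962_at read 6.71, 39.3, 17.9 and 62.0 in MYC-negative and 131, 244, 221 and 80.3 in MYC-positive cells, without overlap and with a mean difference of 2.73 (SD 1.71, n = 4 pairs). In the probe set 1446117_at the MYC-negative signals were 13.5, 53.1, 42.8 and 63.96 and the MYC-positive ones 92.0, 132, 177 and 13.7. It was higher in 3 of 4 pairs and lower in pair 4, with a mean of 0.97 (SD 2.21, n = 4 pairs).

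The remaining Spire1 probe sets, 1458203_at and 1459548_at, were dim and did not pass the filter. The former read 14.4, 4.87, 21.9 and 13.4 in MYC-negative and 70.6, 0.959, 27.1 and 2.94 in MYC-positive cells, with a mean difference of -0.47 (SD 2.20, n = 4 pairs). The latter lay under the filter level on all 8 arrays, at 11.5, 1.502, 13.5 and 7.64 in MYC-negative and 1.49, 1.99, 17.9 and 10.9 in MYC-positive cells, with a mean of -0.41 (SD 1.70, n = 4 pairs). Both overlapped between the groups. Averaging the Spire1 probe sets that passed the filter lowered the gene's difference from 4.76 to 2.82. Spire2, its close relative, had geometric means of 33.3 and 58.4 and a difference of 0.81 that did not pass the test (limma SE 0.62, adjusted p 0.39, n = 4 pairs) and was -0.036 without pair 4, with 1 MYC-positive array, that of pair 4, at 382 and the others between 27.8 and 35.6.

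Ier3 encodes an early response protein that is rapidly made after growth factor, stress or NF-kB signalling and modulates ERK signalling and cell survival. The 250 bases before its start, chr17:35821463-35821712 on the plus strand of GRCm38.p6, are given by RefSeq as follows, shown because Ier3 is a classical NF-kB target, with an NF-kB match in capitals.
Ier3: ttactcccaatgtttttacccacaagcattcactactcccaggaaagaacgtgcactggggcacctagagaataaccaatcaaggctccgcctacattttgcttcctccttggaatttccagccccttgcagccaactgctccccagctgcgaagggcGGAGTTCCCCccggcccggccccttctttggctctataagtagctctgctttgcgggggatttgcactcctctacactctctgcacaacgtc
The match, GGAGTTCCCC as printed and found on the other strand, lay at positions -92 to -83, and 7.25% of all windows held an NF-kB match. The E-box CACGTG, to which MYC and MAX bind, was in 6.02% of all windows and in none of the windows printed for Saa3, Retnla and Ier3. The same holds for the AP-1 motif TGANTCA, in 6.75% of windows, and the STAT motif TTCNNNGAA, in 7.02%; every motif was searched on both strands, and no matches overlapped. A match is a run of letters and not a measured binding site, and a missing match says nothing of sites elsewhere.

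The single Ier3 probe set, 1419647_a_at, read 9.78, 1.70, 43.8 and 28.4 on the MYC-negative arrays and 81.3, 175, 145 and 166 on the MYC-positive arrays. The MYC-positive arrays were close together, differing at most 2.15-fold, while the MYC-negative arrays were spread widely, with pair 2 the lowest. The paired differences were 3.05, 6.69, 1.73 and 2.55, with a mean of 3.50 (SD 2.19, SE 1.10, n = 4 pairs) and geometric means of 12.0 and 136, a ratio of 11.3. The low MYC-negative array of pair 2 weighed on this mean, which was 2.44 without that pair.

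**Figure D2:**
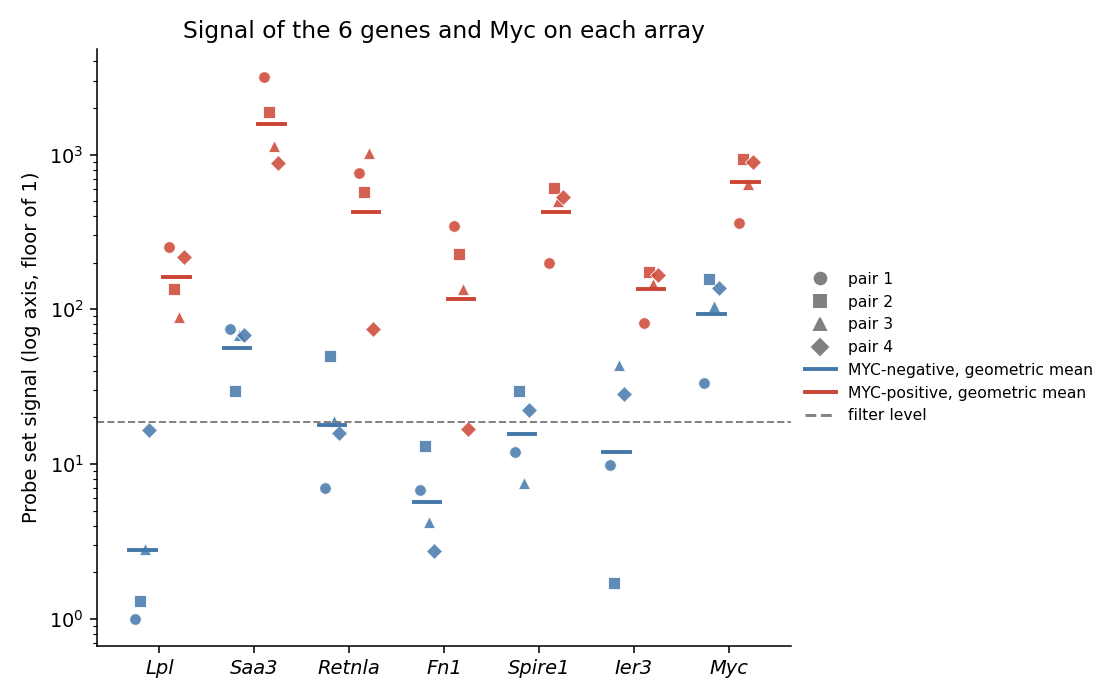
Signal of the probe set used for each of the 6 genes and for Myc on each array (y axis, log scale, signals under 1 drawn at 1), MYC-negative in blue and MYC-positive in red, with marker shapes for the 4 pairs, bars for geometric means and a dashed line at the filter level of 18.7. In each gene the red points lie above the blue ones, with pair 4 lowest among the red points of Retnla at 74.1 and of Fn1 at 16.8.

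**Figure D3:**
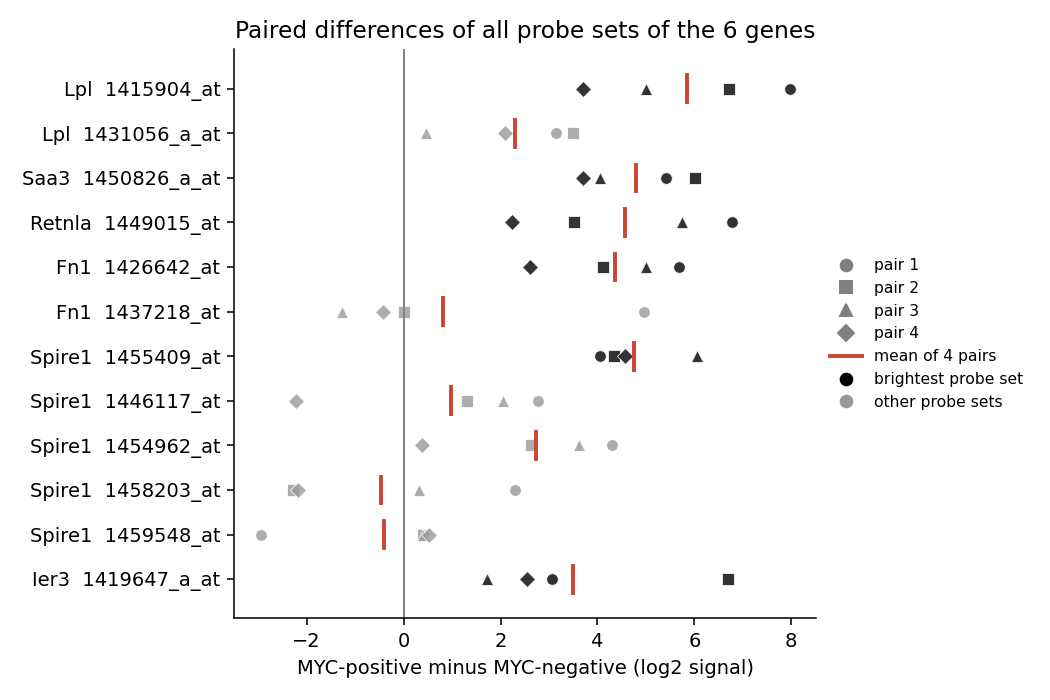
MYC-positive minus MYC-negative log2 signal (x axis) in each of the 4 pairs for all 12 probe sets of the 6 genes, with the probe set used in black, the others in grey and red bars at the means. The probe sets used lie right of 0 in every pair, and the second Fn1 probe set and 3 of the 5 Spire1 probe sets straddle 0.

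Co-variation over pairs was described within the MYC-positive arrays, where the 6 genes have signal, as each array's log2 distance from the mean of the 4. Spire1, Ier3 and Myc ordered these arrays alike, pair 2 highest, then pair 4, pair 3 and pair 1. Spire1 deviated by -1.08, 0.51, 0.23 and 0.34 in pairs 1 to 4, Ier3 by -0.74, 0.36, 0.094 and 0.29, and Myc by -0.88, 0.49, -0.042 and 0.43. The root mean square distance of Ier3 from Myc was 0.14, and 13 of the 11753 other genes tested lay nearer to Myc; for Spire1 it was 0.18, with 29 genes nearer. This order is that of the brightest Spire1 probe set, 1455409_at, and was not shared by the other 2 Spire1 probe sets above the filter. In 1454962_at the order was pair 2, 3, 1 and 4, and in 1446117_at pair 3, 2, 1 and 4, both with pair 4 lowest. The likeness to Myc was looked at after the values had been seen, rests on 4 arrays and carries no test.

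Lpl, Saa3, Retnla and Fn1 did not share this order. Saa3 and Fn1 both went from pair 1, the highest, through pairs 2 and 3 to pair 4. Saa3 deviated by 1.02, 0.27, -0.47 and -0.83, and Fn1 by 1.58, 0.97, 0.23 and -2.78. Retnla deviated by 0.84, 0.42, 1.27 and -2.53, so it shared with Fn1 the low array of pair 4, and Lpl deviated by 0.64, -0.24, -0.84 and 0.44. Their distances from Myc were 0.93 for Lpl, 1.16 for Saa3, 1.83 for Retnla and 2.04 for Fn1, and between 9260 and 11606 genes were nearer to Myc. Among the 6 genes the closest were Ier3 and Spire1 at 0.20, then Fn1 and Retnla at 0.71 and Lpl and Saa3 at 0.73, whereas Fn1 and Spire1 were 2.06 apart.

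The likeness of Ier3 to Myc was not seen in the MYC-negative arrays. There the distance from Myc was 2.09 for Ier3, with 11712 genes nearer, and 0.83 for Spire1, with 3233 nearer. The closest of the 6 there was Retnla at 0.52, with 189 genes nearer, although it was far from Myc in the MYC-positive arrays. At these low signals the order of the MYC-negative arrays carries little, and the log2 SD over them was 2.09 for Ier3 and 1.83 for Lpl against 0.51 and 0.68 in the MYC-positive arrays.

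**Figure D4:**
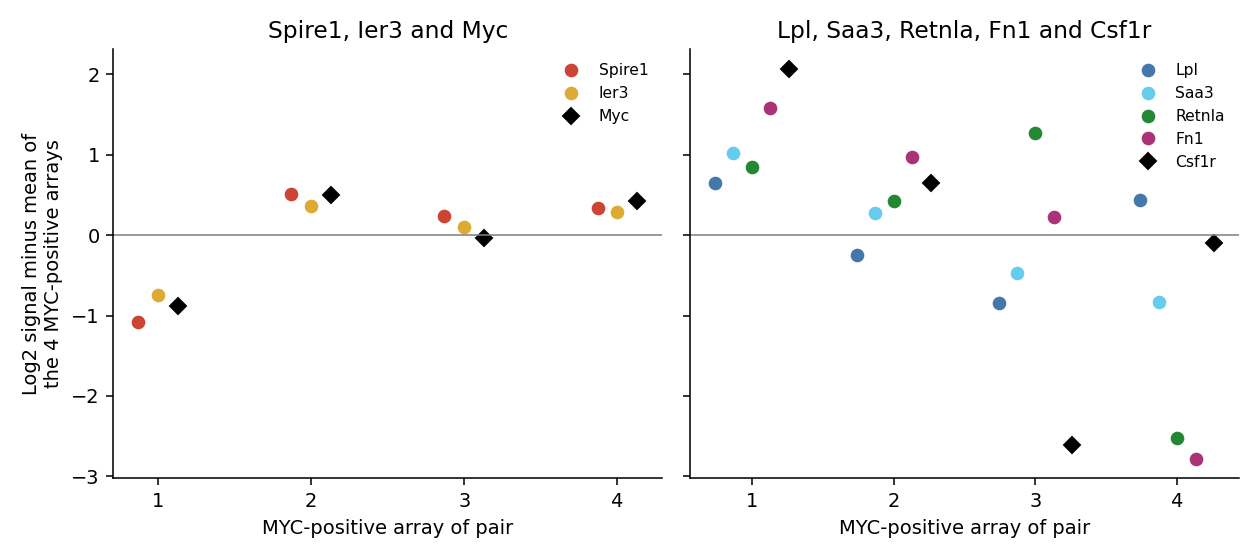
Log2 signal minus the mean of the 4 MYC-positive arrays (y axis) on the MYC-positive array of each pair (x axis), for Spire1, Ier3 and Myc on the left and for Lpl, Saa3, Retnla, Fn1 and the macrophage gene Csf1r on the right, points set side by side within a pair. On the left the 3 genes are low in pair 1 and within 0.51 of the mean elsewhere, and on the right pair 1 is above the mean for every gene while Retnla and Fn1 fall to -2.53 and -2.78 in pair 4.

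Over all 8 arrays, the genes most like each of the 6 were named by the smallest root mean square distance of centred log2 signals, among 11748 other genes tested. Nearest to Lpl were the complement gene C1qc at 1.32, the chemokine receptor Ackr3 at 1.37 and Rangrf at 1.48. Nearest to Saa3 were the cyclin Ccnd2 at 0.71, the macrophage receptor Adgre4 at 0.74 and the iron exporter Slc40a1 at 0.85. Cd163, the haemoglobin scavenger receptor of macrophages, was nearest to both Retnla, at 1.00, and Fn1, at 0.88. The distance over all 8 arrays is dominated by the difference between the groups that chose the 6 genes, so any gene near one of them must differ between the groups too, and their differences are no further result.

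The next nearest to Retnla were the endothelin receptor Ednrb at 1.00 and the signalling inhibitor Socs2 at 1.19, and those to Fn1 were Socs2 at 0.92 and the chemokine Ccl6 at 1.00. Nearest to Spire1 were Ccnd2 at 0.93, the methyltransferase Smyd2 at 0.95 and the decoy receptor Il1r2 at 0.96. Nearest to Ier3 were the phosphatase gene Ppm1h at 0.97, Tmem158 at 0.98 and Gsto1 at 1.04. None of these was on the list of macrophage markers used below, whereas C1qc and Slc40a1 were.

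Many markers of macrophages and monocytes were, like the 6 genes, higher in MYC-positive cells. Of 25 such markers 16 were tested, and 10 were called higher and 0 lower in MYC-positive cells, with a median difference of 2.75. Over all genes tested the shares were 11.2% higher and 11.5% lower. Among those called, Csf1r, Vcam1, Slc40a1 and C1qc had MYC-negative geometric means under the filter level, at 5.42, 7.44, 10.9 and 3.33. Such genes passed the filter only through their MYC-positive arrays and had to be higher, so their calls and p-values are no independent result. The 10 calls and the median of 2.75 include such genes, and no count was made without them. The shares over all genes tested therefore stand beside this list only as a description. Csf1r, the receptor for macrophage colony-stimulating factor, read 76.0, 2.89, 3.09 and 1.27 in MYC-negative and 1915, 715, 74.9 and 429 in MYC-positive cells, a mean difference of 6.40 (limma SE 0.70, adjusted p 0.00093, n = 4 pairs). Vcam1 rose by 5.98 (adjusted p 0.00035), Slc40a1 by 5.83 (adjusted p 0.00053) and lysozyme, Lyz2, by 3.40 (adjusted p 0.00058). Most MYC-negative signals of Csf1r, Vcam1 and Slc40a1 were low, and with a floor of 64 their differences were 2.78, 2.88 and 3.27. Averaging probe sets gave 3.84 for Csf1r and 3.89 for Vcam1. Adgre1, which encodes F4/80, differed by 0.63 (adjusted p 0.43) and Cd68 by 0.51 (adjusted p 0.28), and Itgam and Trem2 lay under the filter level on all arrays.

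The summed signal of the macrophage markers other than Ctss, which B cells also express, was 577 to 1167 on the MYC-negative arrays. On the MYC-positive arrays of pairs 1 to 4 it was 12368, 5376, 1862 and 3884. With Ctss, the sums were 8682 to 12291 and 11021 to 20436. The macrophage sum and Csf1r were both highest in pair 1 and lowest in pair 3 of these arrays, as was the brighter Lpl probe set. The dimmer Lpl probe set was lowest in pair 3 but not highest in pair 1. Saa3 and Fn1 were highest in pair 1 but lowest in pair 4. Retnla was highest in pair 3, at 1028, where the macrophage sum was lowest. Ier3 and the brightest Spire1 probe set were lowest in pair 1, where the macrophage sum was highest. The part of these cells in the signal of Lpl, Saa3, Retnla, Fn1, Spire1 and Ier3 was not tested, and in these bulk samples fewer cells of a type and less RNA per cell cannot be told apart.

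Markers of other cells moved less. The shares over all genes tested, 11.2% called higher and 11.5% lower, stand beside the counts of all these cell type lists. Of 11 B cell markers tested 0 were called higher and 3 lower (Pax5, Cr2 and Cd22), and of 7 germinal centre markers 0 were higher and 2 lower (Mybl1 and Fas), and none of them lay under the filter level on all arrays. The summed signal of the B cell markers was 60066 to 69554 on the MYC-negative and 48093 to 58556 on the MYC-positive arrays. It was clear in both groups and, on the deposited scale, lower in the second. With median centring the differences of Ms4a1, Cd79b and Ebf1 turned from -0.15, -0.29 and -0.17 to 0.29, 0.15 and 0.27, none called in either setting. The sum was not computed with that centring, so its lower value is not firm. The calls of Pax5, Cd22 and Fas were lost without pair 1 (limma adjusted p 0.056, 0.082 and 0.13) and without pair 2 (0.058, 0.11 and 0.11), that of Cd22 also without pair 3 (0.059), and those of Cd22 and Fas with median centring (0.47 and 0.53). With quantile normalization 9 of the 11 B cell and 5 of the 7 germinal centre markers were called lower, and without pair 4 the counts were 6 and 3. At an unadjusted p under 0.05, 0 of either list were higher, and 7 and 5 were lower. Of 7 plasma cell markers tested 3 were higher (Sdc1, Slpi and Irf4), with Sdc1 at the threshold and not called without pair 2 (limma adjusted p 0.05). Of 6 tested markers of body cavity macrophages 1 was called higher, Prg4 by 2.59 (limma adjusted p 0.020, but 0.12 without pair 1 and 0.11 without pair 2), and 1 lower, Icam2, whose adjusted p of 0.015 became 0.11 and 0.079 without pairs 1 and 2, and 0.0501 without pair 3. The count higher in that list was 3 with a floor of 16 or with no filter, and 0 in other settings such as a floor of 64. Of 4 tested T cell markers 1 was higher, Thy1 by 2.34 (adjusted p 0.019, but 0.062 without pair 1 and 0.063 without pair 2). Prg4 and Thy1 had MYC-negative geometric means under the filter level, at 17.9 and 14.5. They were tested only through their MYC-positive arrays and so had to be higher.

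Granulocyte markers were low, with sums of 83.3 to 178 on the MYC-negative and 69.0 to 629 on the MYC-positive arrays. The highest value came from S100a9, which read 2.59, 2.20, 2.71 and 423 on the MYC-positive arrays, so that pair 4, lowest for Saa3, Retnla and Fn1, was the highest for it. Ltf, Mpo and Cxcr2 lay under the filter level on every array. The lists for eosinophils, basophils and mast cells, dendritic cells, NK cells, stromal cells, and red cells and platelets had 0 calls in either direction by limma, over 1 to 4 tested genes each, and at an unadjusted p under 0.05 only 1 NK cell gene was lower. In some settings 1 gene was called for dendritic cells, NK cells, and red cells and platelets. Of 4 endothelial markers 1 was higher, Stab2 by 1.54 (adjusted p 0.043, but 0.17, 0.13 and 0.075 without pairs 1, 2 and 4), and 1 lower, Pecam1, which fell by 1.97.

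The other genes of each pathway were read from lists built by function. Around Lpl, 24 of 32 genes of lipoprotein and lipid handling were tested, and 3 were higher and 1 lower, with a median of -0.084 against -0.063 for all genes tested. Fabp5, a fatty acid carrier of proliferating cells, rose by 2.09 (limma adjusted p 0.00089). Angptl4, a secreted inhibitor of lipoprotein lipase, rose by 1.66 (adjusted p 0.020, but 0.11 without pair 1 and 0.077 without pair 2), and the lipase Mgll by 1.30 (adjusted p 0.018, but 0.067, 0.10 and 0.053 without pairs 1, 2 and 3). Apoe, which carries lipids on lipoproteins, fell by 1.87 (adjusted p 0.0088, but 0.054 without pair 1 and 0.064 without pair 2). Without pair 1 or without pair 2 the counts were 1 higher and 0 lower, and the shares called over all genes tested were 11.2% higher and 11.5% lower.

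Around Saa3, 10 of 22 acute phase genes and their inducers were tested, with 1 higher, 1 lower and a median of 0.0012. Both counts are near the shares over all genes tested, 11.2% higher and 11.5% lower. Socs3, an inhibitor of cytokine signalling, rose by 2.43 (limma adjusted p 0.0018), and the lipopolysaccharide receptor Tlr4 fell by 1.503 (adjusted p 0.048, but 0.14, 0.082 and 0.052 without pairs 1, 2 and 3). Around Retnla, 8 of 18 genes of the resistin family and of alternative macrophage activation were tested, with 3 higher, 0 lower and a median of 0.78. The shares of 11.2% and 11.5% stand beside these counts too. Cd163 rose by 4.26 (adjusted p 0.0038), the cytokine Il10 by 2.97 (adjusted p 0.0012) and the mannose receptor Mrc1 by 2.11 (adjusted p 0.013, but 0.094 without pair 1 and 0.086 without pair 2). Cd163 lost its call under a floor of 64 (limma adjusted p 0.19), at which its low MYC-negative signals are all set equal. That floor also raised the MYC-positive signals of Cd163 in pairs 3 and 4, 46.8 and 38.1, so those pairs no longer differed. The MYC-negative geometric mean of Cd163, 4.76, lay under the filter level. Cd163 thus passed the filter only through its MYC-positive arrays and had to be higher.

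Around Fn1, 19 of 30 genes of fibronectin receptors and matrix were tested, with 1 higher, 2 lower and a median of 0.12. Neither count exceeds the share over all genes tested, 11.2% higher and 11.5% lower. The matrix protein Tgfbi rose by 3.36 (limma adjusted p 0.0041, but 0.39 under a floor of 64). Its MYC-negative geometric mean, 6.91, lay under the filter level, so it was tested only through its MYC-positive arrays and had to be higher. The integrin subunit Itga4 fell by 0.96 (adjusted p 0.0082, but 0.071 without pair 2 and 0.079 with median centring), and Itgb3 fell by 0.92 (adjusted p 0.0069, but 0.067 without pair 1, 0.059 without pair 2 and 0.093 with median centring). The list's counts were 2 higher and 0 lower with median centring.

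Around Spire1, 27 of 32 actin nucleators and partners were tested, with 2 higher, 3 lower and a median of -0.21. Both counts are near the shares over all genes tested, 11.2% higher and 11.5% lower. The formin Inf2 rose by 1.56 (limma adjusted p 0.012, but 0.087 without pair 1 and 0.081 without pair 2) and the nucleation regulator Jmy by 1.03 (adjusted p 0.022, but 0.10, 0.12 and 0.080 without pairs 1, 2 and 3). Fmn2, a formin that works with SPIRE proteins, fell by 1.97 (adjusted p 0.021, but 0.068 without pair 1 and 0.086 without pair 2). Rab11fip2 fell by 2.12 (adjusted p 0.012, but 0.067 without pair 1 and 0.069 without pair 2) and Fmnl1 fell by 1.04 (adjusted p 0.027, but 0.14, 0.15 and 0.083 without pairs 1, 2 and 3). None of the 5 calls in this list held without pair 1 or without pair 2, and with median centring the counts were 3 higher and 2 lower.

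Around Ier3, 29 of 36 early response genes and regulators of ERK and NF-kB were tested, with 3 higher, 7 lower and a median of -0.22. Over all genes tested 11.2% were called higher and 11.5% lower. Jun rose by 1.11 (limma adjusted p 0.028, but 0.13, 0.070 and 0.088 without pairs 1, 2 and 3). The NF-kB feedback genes Tnfaip3 and Nfkbia rose by 0.93 (adjusted p 0.012, but 0.095 without pair 2) and by 0.43 (adjusted p 0.037, but 0.20, 0.077 and 0.094 without pairs 1, 2 and 3). Fos fell by 1.82 (adjusted p 0.020, but 0.11 without pair 1 and 0.058 without pair 2), Klf2 fell by 1.59 (adjusted p 0.042, but 0.20, 0.17 and 0.098 without pairs 1, 2 and 3) and Btg2 fell by 1.35 (adjusted p 0.012, but 0.076 without pair 1 and 0.072 without pair 2). The split of 3 higher and 7 lower turned to 8 higher and 3 lower with median centring, and without pair 2 it was 0 and 1, so no direction is given for the list.

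The size of the 6 differences depended on how low signals were treated. Their direction was the same in every setting tried, but most settings could not have changed it. In the probe set used each gene was higher in every pair, so a floor, a pseudocount or a left-out pair cannot reverse it. Changing the filter, the block or the intensity trend left the differences as they were. With a floor of 64 in place of 1, the differences were 1.33 for Lpl, 4.52 for Saa3, 2.74 for Retnla, 1.34 for Fn1, 2.73 for Spire1 and 1.09 for Ier3. Lpl had the largest difference of the 6 with the floor of 1, and Saa3 had it with a floor of 16 or 64. With a pseudocount of 16 the values ran from 2.20 for Ier3 to 4.43 for Saa3.

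**Figure D5:**
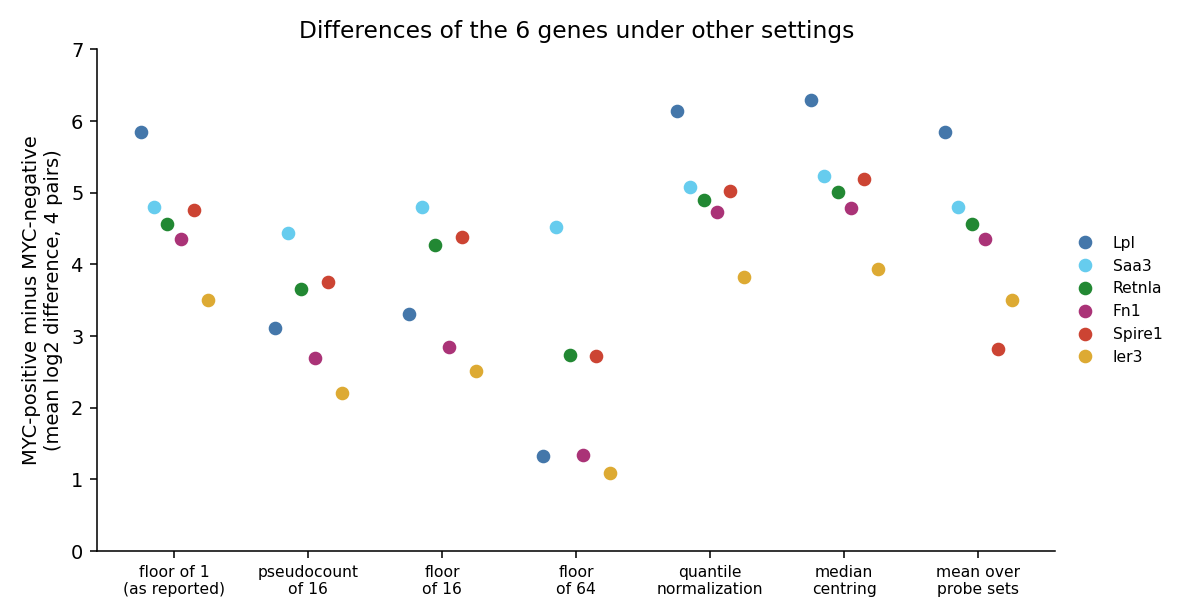
Mean paired log2 difference, MYC-positive minus MYC-negative (y axis, 4 pairs), of each of the 6 genes under the floor of 1 and 6 other settings (x axis). Lpl drops from 5.85 with the floor of 1 to 1.33 with a floor of 64, Saa3 stays between 4.43 and 5.24, and Spire1 is 2.82 when its probe sets are averaged.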

How the data were processed

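RNA of 4 MYC-positive and 4 MYC-negative samples was measured on 8 arrays. The deposited values are probe set intensity values made with MAS5 per the submitters' processing notes; version and scaling target: not given in the sources used here. Trimmed means over the arrays were 497 to 498, so the values were already scaled, and no further normalization was applied. Detection calls were not used. Of 45056 probe sets, 34945 had 1 gene symbol in the platform annotation, 932 several, 9160 none, and 19 were controls; 0 symbols changed on an update through the RefSeq table.

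Signals were raised to a floor of 1 and put on the log2 scale. Probe sets with 1 symbol were kept when their mean was above the 40th percentile of non-control probe sets, a signal of 18.7 (log2 4.22), and the brightest probe set stood for a gene. Fits used limma 3.58.1 in R 4.3.3 with an intensity trend and the pair as a block (3 residual degrees of freedom), 2-sided, with Benjamini-Hochberg adjustment over 11754 genes at 0.05. Pairs came from the sample descriptions; same-pair deviations correlated at 0.26, 0.17, 0.088 and 0.12, and the replicate numbers in titles were not used. The script was tested on simulated data. The number of arrays limits the precision.

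Named genes are the 6 genes, Myc, the paralogues, the 3 genes nearest to each of the 6 over the 8 arrays, up to 3 called higher and 3 lower by size from each list, and for cell type lists the 3 with the highest MYC-positive signal; the text gives those that bear on the 6 genes and the other lists by counts. Adgre1, Cd68, C1qa and C1qc were named after their values were seen. The 6 genes and the lists were chosen with earlier results of these data known. Alternatives were floors of 16 and 64, a pseudocount of 16, quantile normalization, median centring, no filter, the 60th percentile, the mean over probe sets, no block, no intensity trend, and each pair left out. Promoters are windows from RefSeq on GRCm38.p6 for 3 of the 6 genes.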

Additional observations from a re-analysis of the deposited data

Results flagged for a closer look

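In the 26 groups of 4 arrays checked, 2 had an array far from the rest by Dixon's criterion, which chance gives in about 1 in 20 groups. On the MYC-negative array of pair 2, Saa3 read 29.5, the lowest of its group, against 67.7 to 74.9 on the others. The gap was 0.89 of the group's range on the log2 scale. The second Fn1 probe set, 1437218_at, read 31.0 on the MYC-positive array of pair 1, against 0.902 to 1.53 on the others. On the log2 scale with the floor of 1 this was a gap of 0.88 of the range.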

How the results depend on the processing

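The 6 genes kept their direction in every setting tried. For floors, the pseudocount and left-out pairs this was fixed in advance, since in the probe set used each gene was higher in every pair. Of 53 named genes called by limma 0 changed sign, whereas 20 of 28 named genes not called did in some setting. Called genes are those whose differences are large against their spread, so this contrast carries little. The median of all genes, -0.063, became 0.087 with quantile normalization and 0.38 with median centring. The count of genes higher in MYC-positive cells, 1319, became 3204 with median centring and 736 without the intensity trend, and 403 to 1742 when a pair was left out. The count of genes lower, 1352, became 546 with median centring, 771 without the intensity trend, 901 without the replicate block, and 352 to 2036 when a pair was left out; both were lowest without pair 1 and highest without pair 4. The median of the 6 genes, 4.66, became 2.03 with a floor of 64 and 3.39 with a pseudocount of 16, and 4.25 to 5.05 when a pair was left out. Macrophage markers called higher, 10, became 6 with a floor of 64 and 3 with the 60th percentile filter, under which 1 of the 6 genes was still tested. Of the 53 calls, 25 were lost without pair 1, 28 without pair 2, 9 without pair 3 and 1 without pair 4, 14 with a floor of 64, 15 without the intensity trend, 8 with median centring and 8 without the block. The cause of these shifts was not tested, except that the stricter filter tests fewer genes and a floor sets low signals equal. Low signal limits the MYC-negative values of all but Saa3.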
